A study of Mus musculus with 10 samples.

Results

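Striated muscle genes were followed here in embryonic lenses, as a set of 36 genes that code for the myogenic transcription factors, the contractile apparatus and the calcium-release machinery of muscle fibres. The members were named by symbol, and each was represented by its annotated probe set. All 36 were found among the 19938 genes measured, each with 1 probe set. The arrays were made from lenses of E13.5 mice, 5 of genotype Le-Cre+/-;DicerloxP/loxP (called DicerCN) and 5 of genotype Le-Cre-/-;DicerloxP/loxP (control). All embryos thus carried loxP-flanked alleles of Dicer, the ribonuclease that makes mature microRNAs, and the Cre transgene was present in DicerCN embryos only. Some labels call the controls wild type, although their genotype field gives the flanked alleles. Le-Cre is driven by the P0 promoter of Pax6 in the surface ectoderm that forms the epithelium of cornea and lens, so muscle cells are not among the cells in which it is stated to act. Each array held 100 ng of RNA from the lens pair of 1 embryo, and the labels describe 5 independent samples per group.

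Skeletal muscle forms when Myf5, MyoD, myogenin and Mrf4, related basic helix-loop-helix factors, commit progenitors and switch on the genes of the sarcomere. They bind the E-box, CANNTG, often beside sites for MEF2 or for serum response factor, whose site is the CArG box. Embryonic fibres first assemble embryonic and perinatal myosins and several isoforms best known from heart, and fast and slow adult isoforms follow. The lens itself contains no striated muscle, while the extraocular muscles and muscles of the eyelid form around the eye.

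Crystallin signal was near the top of the scale on all 10 arrays, and the 12 lens markers summed to a linear signal of 91511 on the array of control replicate 4, 93612 to 98448 on those of the other 4 controls and 79449 to 94417 on DicerCN arrays. Cryaa, alpha A crystallin, lay between 14.33 and 14.46 in log2 signal on every array. Control replicate 4 stood apart from the other controls in the muscle genes, so group results are given with it and without it. Array medians lay between 6.54 and 6.56, and no array had a muscle signal of 0, because log2 values of this kind have no true zero and carry no call of detection.

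In control replicate 4, 28 of the 36 muscle genes were at least 1 log2 unit above the mean of the other 4 controls, where 1.03% of all genes were. The median difference was 2.56 over the members (5.88-fold) and −0.03 over all genes. Among all genes, the median percentile of a member's signal was 80.5 in control replicate 4 and 37.7 on the other 9 arrays. Many folds below thus start from low signal, whose background part could not be judged, and their sizes are uncertain to that extent. The same array was the highest of the 10 for 33 members, against 7.04% of all genes. It is 1 array, the lens pair of 1 embryo, and its difference from the others has no replicate and no test. In bulk RNA, more cells of a type and more of that type's RNA per cell cannot be told apart, nor can fewer cells and less RNA per cell.

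**Figure D1:**
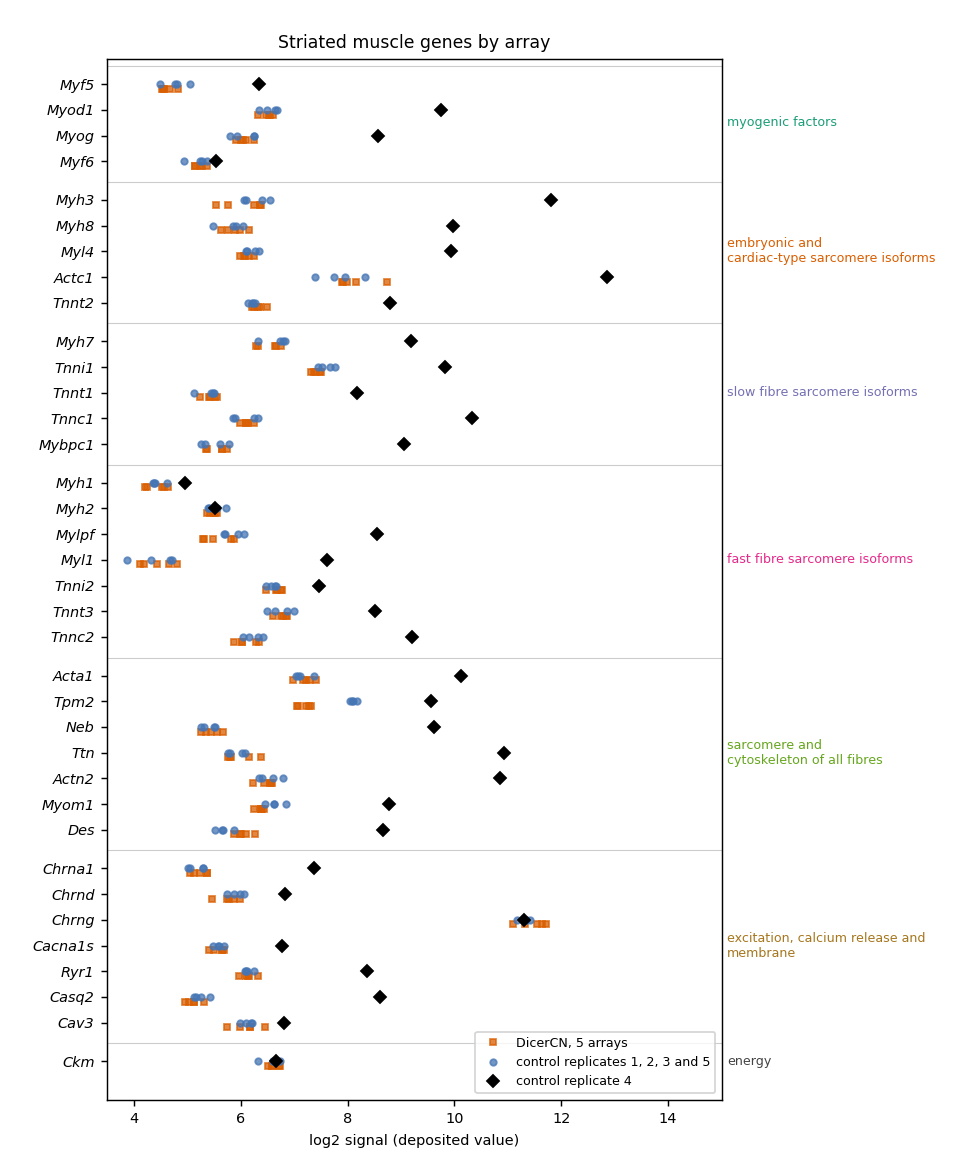
Log2 signal of each of the 36 striated muscle genes on each array, grouped by role; black diamonds are control replicate 4, blue circles the other 4 controls and orange squares the 5 DicerCN arrays. The diamonds lie to the right of every other array for 33 genes, and the remaining exceptions are Myh2, Chrng and Ckm.

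Of the 4 myogenic factors, 3 were at least 1 log2 unit higher in control replicate 4. Myod1, the gene of MyoD, measured 6.64, 6.50, 6.33, 9.75 and 6.69 (log2 signal, control replicates 1 to 5) against 6.33, 6.60, 6.53, 6.55 and 6.47 (DicerCN replicates 1 to 5, the order kept throughout). Control replicate 4 was thus 9.23-fold above the mean of the other controls (3.21 on the log2 scale), and the other 9 arrays spanned only 0.36. Myog, the gene of myogenin, which drives terminal differentiation, measured 6.25, 5.93, 5.79, 8.57 and 6.25 in control and 6.10, 6.04, 6.002, 5.92 and 6.24 in DicerCN lenses. Again 1 array was high, by 5.71-fold, and the other controls overlapped the DicerCN arrays. Myf5, the earliest of the factors, was 6.34 in control replicate 4 and between 4.48 and 5.05 on the other 9 arrays, a difference of 1.56. Myf6, the gene of Mrf4, which acts late in fibre maturation, was 5.55 there and 4.94 to 5.37 elsewhere. Its difference of 0.34 was small beside those of the other factors, although control replicate 4 was still the highest array.

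All 5 embryonic and cardiac-type sarcomere isoforms were at least 2 log2 units higher in control replicate 4, with a median of 4.16 (17.8-fold). Myh3, embryonic myosin heavy chain, had the largest difference of all 19938 genes. It measured 6.54, 6.06, 6.10, 11.81 and 6.40 in control and 5.54, 6.36, 6.25, 5.76 and 6.38 in DicerCN lenses. That placed control replicate 4 46.6-fold above the other controls, and the next highest array was control replicate 1. Actc1, the cardiac alpha actin that embryonic skeletal muscle also makes, measured 8.33, 7.75, 7.39, 12.86 and 7.95 in control and 7.90, 7.98, 8.16, 7.92 and 8.73 in DicerCN lenses. It was 32.1-fold higher in control replicate 4, and among the remaining arrays DicerCN replicate 5 was the highest. Myh8, the perinatal myosin heavy chain, was 17.8-fold higher and Myl4, the embryonic and atrial alkali light chain, 13.3-fold. Tnnt2, cardiac troponin T, differed least of the 5, at 6.03-fold.

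The 5 slow-fibre isoforms were also all higher by at least 2 log2 units, with a median of 2.80. Tnnc1, the troponin C of slow and cardiac muscle, read 6.25, 6.33, 5.86, 10.34 and 5.90 in control and 6.09, 6.13, 5.99, 6.10 and 6.24 in DicerCN lenses. The high array was 19.1-fold above the other controls, and the other 9 arrays lay within 0.46 of each other. Mybpc1, slow myosin-binding protein C, was 11.8-fold higher. Tnnt1 and Tnni1, slow troponins T and I, differed by 2.80 and 2.23, and Myh7, the slow and cardiac beta myosin heavy chain, by 2.52.

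Fast-fibre isoforms divided: 4 of 7 were at least 1 log2 unit higher and the median was 1.76. Myl1, the fast alkali light chain, was 9.33-fold higher, at 7.62 against 3.88 to 4.81 on the other 9 arrays. Tnnc2, Mylpf and Tnnt3, which code for fast troponin C, the fast regulatory light chain and fast troponin T, differed by 2.97, 2.70 and 1.76. The fast troponin I gene Tnni2 differed by 0.88. The adult fast myosin heavy chains were the fast genes with the smallest differences. Myh2, the chain of type IIa fibres, measured 5.72, 5.41, 5.39, 5.51 and 5.56 in control and 5.51, 5.49, 5.55, 5.42 and 5.37 in DicerCN lenses. Control replicate 4 lay inside that range, with a difference of −0.0064. Myh1, the chain of type IIx fibres, was 4.96 there and 4.20 to 4.64 elsewhere, a difference of 0.52. Myh4 and Myh13, the type IIb and extraocular chains, named after their values were seen, differed by 0.42 and 0.026. Myosin heavy chain genes are near-identical in sequence over long stretches, as are the alpha actin genes, so probes may read a neighbour's transcript, and the separate values are uncertain to that extent.

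Each of the 7 sarcomere and cytoskeleton genes shared by all fibres was at least 1 log2 unit higher, with a median of 2.99. Ttn, the giant spring protein titin, measured 6.03, 5.76, 5.80, 10.92 and 6.08 in control and 5.76, 6.38, 6.16, 5.81 and 5.81 in DicerCN lenses. Its 32.1-fold difference ranked second among all genes, just above that of Actc1. Actn2, the Z-disc protein alpha-actinin 2, and Neb, the thin-filament ruler nebulin, were 19.9-fold and 18.7-fold higher. Des, the muscle intermediate filament desmin, and Acta1, skeletal alpha actin, differed by 2.99 and 2.98, Myom1, the M-band protein myomesin, by 2.14 and Tpm2, beta tropomyosin, by 1.46. For Tpm2 the other 4 controls were at 8.04 to 8.18 and all DicerCN arrays below them, as the group comparison describes.

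Of 7 genes of excitation, calcium release and membrane 4 were at least 1 log2 unit higher, with a median of 1.20. Casq2, a calcium store protein of the sarcoplasmic reticulum made in heart, slow and embryonic fibres, read 5.26, 5.42, 5.12, 8.60 and 5.16 in control and 5.12, 4.95, 5.31, 5.02 and 5.12 in DicerCN lenses. It was 10.3-fold higher in the high array, while Casq1, the fast-fibre calsequestrin, named after its value was seen, differed by 0.12. Ryr1, the calcium release channel, and Cacna1s, its voltage sensor, differed by 2.22 and 1.20. Cav3, caveolin 3 of the muscle membrane, differed by 0.69.

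The acetylcholine receptor subunits parted. Chrna1, the alpha subunit, was 7.37 in control replicate 4 and 5.02 to 5.37 on the other 9 arrays, a difference of 2.20, and Chrnd, the delta subunit, differed by 0.91. Chrng, the subunit of fetal receptors, measured 11.34, 11.17, 11.34, 11.31 and 11.42 in control and 11.71, 11.54, 11.64, 11.32 and 11.10 in DicerCN lenses. Its probe set did not separate control replicate 4 from the other controls (−0.0096). Eif4e2, a cap-binding protein gene next to Chrng in GRCm38.p6 and named after its value was seen, differed by 0.018 there, and whether the Chrng probe set reads other transcripts was not tested. Ckm, muscle creatine kinase, which buffers ATP in mature fibres, likewise showed no separation: it read 6.60, 6.61, 6.33, 6.65 and 6.73 in control and 6.59, 6.74, 6.50, 6.72 and 6.58 in DicerCN lenses.

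**Figure D2:**
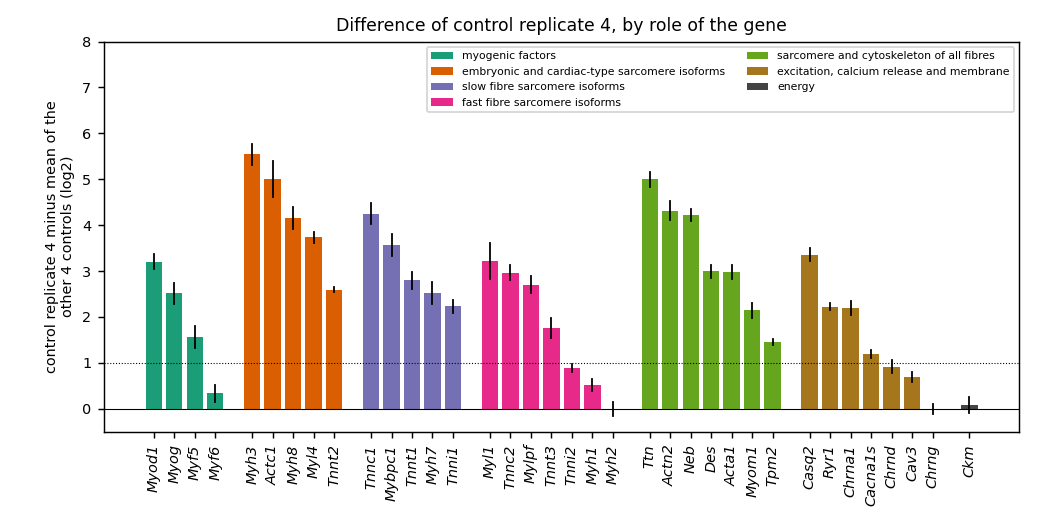
Difference of control replicate 4 from the mean of the other 4 controls (log2) for each muscle gene, coloured by role; whiskers are the SD of the other 4 controls and the dotted line marks 1 log2 unit. Embryonic, slow and all-fibre genes all pass that line, with Myh3 at 5.54, while Myf6, Tnni2, Myh1, Myh2, Chrnd, Cav3, Chrng and Ckm lie below it.

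Just inside the mark of 1 log2 unit stood Cacna1s at 1.20 and Tpm2 at 1.46, and just outside it Chrnd at 0.91 and Tnni2 at 0.88. At marks of 2, 3 and 4 log2 units, 24, 12 and 7 members remained, out of 66, 21 and 8 genes in all. The muscle genes were therefore 13.7% of the 205 genes at 1 log2 unit, 36.4% at 2 and 87.5% at 4. None of the other 9 arrays had a member 1 log2 unit above the other 4 arrays of its group, although 5 to 164 genes in all were that far above on those arrays; for the controls, that mean includes control replicate 4. Over those 9 arrays no single array was the highest for most members. Control replicate 1 was the highest for 8 members, more than its share of 6.25% of all genes. Control replicate 5 was the highest for 6, beside 14.4% of all genes, and each other array for 2 to 5, beside 6.36% to 14.9%.

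Promoters of some genes that were high together in control replicate 4, and of a pair that was not, are printed. The motifs marked are the E-box, which the myogenic factors are known to read, and sites of other factors. The genes are chosen examples, and shares over all matched members are given below. RefSeq promoters (GRCm38.p6, the 250 bases before the start of transcription) were matched for 30 members, 33 promoters in all. Those of Myf6, Tnni2, Tnnt3, Neb, Myod1 and Chrnd were not matched. Capitals mark the E-box CANNTG, the MEF2 consensus, the CArG box and the TATA box letters TATAAA, each searched on both strands, and the sequences run 5′ to 3′ on the strand of the gene. The order is Chrna1 (chr2:73580339-73580588, minus strand), Mylpf (chr7:127211358-127211607, plus), Myh3 (chr11:67078050-67078299, plus), Myh8 (chr11:67276874-67277123, plus), Casq2 (chr3:102086165-102086414, plus), Actc1 (chr2:114052876-114053125, minus), Ckm (chr7:19410844-19411093, plus) and Myh2 (chr11:67170777-67171026, plus).
Chrna1: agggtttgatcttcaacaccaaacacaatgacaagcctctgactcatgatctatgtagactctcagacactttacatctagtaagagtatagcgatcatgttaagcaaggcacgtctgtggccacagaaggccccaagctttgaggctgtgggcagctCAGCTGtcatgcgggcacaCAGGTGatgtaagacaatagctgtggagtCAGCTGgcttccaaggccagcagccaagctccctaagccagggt
Mylpf: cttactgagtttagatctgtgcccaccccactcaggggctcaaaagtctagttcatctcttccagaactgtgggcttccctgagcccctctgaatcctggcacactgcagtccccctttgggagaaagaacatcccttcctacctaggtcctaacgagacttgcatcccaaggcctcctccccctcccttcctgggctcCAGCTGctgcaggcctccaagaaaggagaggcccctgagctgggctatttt
Myh3: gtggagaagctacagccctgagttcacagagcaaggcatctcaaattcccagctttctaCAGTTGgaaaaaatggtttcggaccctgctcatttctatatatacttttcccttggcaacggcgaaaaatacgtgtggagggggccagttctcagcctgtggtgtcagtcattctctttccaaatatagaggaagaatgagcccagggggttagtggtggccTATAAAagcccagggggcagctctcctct
Myh8: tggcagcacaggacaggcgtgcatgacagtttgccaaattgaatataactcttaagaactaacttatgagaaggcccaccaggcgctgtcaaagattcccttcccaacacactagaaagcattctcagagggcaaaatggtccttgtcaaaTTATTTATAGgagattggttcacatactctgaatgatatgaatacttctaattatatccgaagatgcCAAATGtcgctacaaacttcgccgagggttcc
Casq2: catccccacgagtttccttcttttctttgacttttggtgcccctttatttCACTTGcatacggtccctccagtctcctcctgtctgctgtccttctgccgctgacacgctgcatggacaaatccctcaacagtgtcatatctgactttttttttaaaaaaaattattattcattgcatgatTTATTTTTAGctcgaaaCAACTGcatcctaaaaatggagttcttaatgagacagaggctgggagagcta
Actc1: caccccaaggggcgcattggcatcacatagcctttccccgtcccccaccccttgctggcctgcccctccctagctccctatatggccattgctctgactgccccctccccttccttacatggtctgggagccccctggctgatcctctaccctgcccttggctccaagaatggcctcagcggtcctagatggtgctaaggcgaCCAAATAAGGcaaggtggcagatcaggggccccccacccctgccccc
Ckm: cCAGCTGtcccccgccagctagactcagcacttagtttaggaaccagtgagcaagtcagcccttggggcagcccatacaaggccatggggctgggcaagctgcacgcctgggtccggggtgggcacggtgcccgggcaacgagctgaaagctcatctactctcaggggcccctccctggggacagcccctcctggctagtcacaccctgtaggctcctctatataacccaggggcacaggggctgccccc
Myh2: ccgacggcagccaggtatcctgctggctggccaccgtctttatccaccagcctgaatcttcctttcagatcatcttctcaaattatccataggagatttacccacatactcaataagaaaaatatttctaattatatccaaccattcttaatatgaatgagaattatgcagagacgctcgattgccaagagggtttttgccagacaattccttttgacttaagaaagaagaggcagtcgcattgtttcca

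The E-box form CAGCTG occurs in the Chrna1 promoter with its first base 92 and 44 bases before the start, and in that of Mylpf at 51 bases. Ckm, which was not higher in control replicate 4, also has CAGCTG, at 249 bases. In Myh3 the matches are CAGTTG at 191 and TATAAA at 29 bases. Myh8 and Casq2 have a MEF2 consensus at 99 and 69 bases, which in Myh8 overlaps a TATAAA read on the other strand. Actc1 has a CArG box at 47 bases, and Myh2 has none of these letters in the window. Any E-box was present in 81.8% of the 33 member promoters and 66.2% of all 32851 promoters. The form CAGCTG, which is counted among them, was present in 42.4% and 13.0%, the TATA box letters in 18.2% and 12.4%, the MEF2 consensus in 12.1% and 1.69% and the CArG box in 9.09% and 1.47%. These are shares of letters in a window and show no binding.

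Other muscle genes were described through 5 pathway lists with 101 measured members. Of these, 23 were at least 1 log2 unit higher in control replicate 4, against 1.03% of all genes. It was the highest array for 55, against 7.04% of all genes. Among 21 genes of progenitors, myoblasts and fusion, 6 passed that mark, led by Mstn, the growth inhibitor myostatin (2.74), Mymk, the fusion protein myomaker (2.54), and Mef2c, a partner of the myogenic factors (2.23). Pax3 and Pax7, which mark muscle progenitors, differed by 0.088 and 0.62, and Mymx, the fusion partner of myomaker, by 0.29 (all 3 named after their values were seen).

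Among 37 other sarcomere and assembly genes 11 passed, led by Klhl41, which stabilises nebulin (3.07), Smyd1, a methyltransferase of sarcomere assembly (2.58), and Smpx, a small costamere protein (2.22). Mybpc2, fast myosin-binding protein C, differed by −0.065. Of 21 membrane, calcium and dystrophin-complex genes 3 passed. They were Atp2a1, the calcium pump of fast fibres (2.76), Srl, sarcalumenin (2.56), and Sgcd, delta sarcoglycan (1.15). The neuromuscular synapse list had 2 of 7, Musk, the receptor kinase that gathers acetylcholine receptors (2.06), and Chrnb1, the beta subunit (1.40), with Colq, which anchors acetylcholinesterase, next at 0.78. Chrne, the subunit of adult receptors, differed by −0.065. Of 15 metabolic genes only Apobec2, a muscle deaminase-family protein (1.83), passed, and Cox6a2 and Fabp3, a cytochrome oxidase subunit and a fatty-acid carrier, followed at 0.85 and 0.68. Mybpc2 and Chrne were named after their values were seen.

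Over all genes, the 20 largest differences of control replicate 4 comprised 12 members, Klhl41 and 7 others. Nrk, a kinase of embryonic muscle and placenta, and Capn6, a calpain-family protein, differed by 4.03 and 3.80, Flnc, muscle filamin, by 3.35, and Acta2, smooth muscle actin, by 3.10. Dcn, the connective tissue proteoglycan decorin, and Epha3, an ephrin receptor, differed by 3.07 and 3.04. DicerCN arrays ran from 6.64 to 8.72 in Dcn and from 7.57 to 9.28 in Acta2. The means of the other 4 controls were 6.53 and 7.44, so these genes were also raised on some DicerCN arrays. Lrrn1, a leucine-rich repeat membrane protein, differed by 3.17, but the other 4 controls ran from 5.22 to 8.49 in it.

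Markers of other tissues were read beside the muscle genes. The members summed to a linear signal of 31354 in control replicate 4, 4988 to 5675 in the other controls and 5055 to 5926 in DicerCN lenses. Of 12 cardiac markers 0 were 1 log2 unit higher, a mark that 1.03% of all genes passed, so 0 of 12 is near the background. The cardiac markers summed to 912 in control replicate 4, 822 to 870 in the other controls and 766 to 899 in DicerCN lenses. Nkx2-5 and Tbx5, cardiac transcription factors, differed by −0.13 and 0.034, and Myl7, Nppa and Mybpc3, which mark atrial and ventricular muscle cells and were named after their values were seen, by 0.011, 0.020 and 0.017. The list's sum was the highest of the 10 arrays in control replicate 4, and its largest differences, also named after their values were seen, were those of Sln, the calcium pump inhibitor sarcolipin, at 0.74 and Myh6, the atrial myosin heavy chain, at 0.68. Both were above all other 9 arrays.

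Of 8 tendon and connective tissue markers 4 were at least 1 log2 unit higher in control replicate 4, against 1.03% of all genes. The 8 summed to 4726 there, 1526 to 1856 in the other controls and 1744 to 4689 in DicerCN lenses. That sum includes Tcf4, bright on every array, at 9.80 in control replicate 4 and 9.53 to 9.96 on the other 9. Tcf4 differed by only 0.16, and the sum is not a measure of connective tissue alone. Col1a1, the collagen of tendon and other connective tissue, was 10.66 in control replicate 4 and 11.19 in DicerCN replicate 3, and 8.02 to 8.92 on the remaining arrays. The muscle genes were not high in DicerCN replicate 3: their median difference from controls 1, 2, 3 and 5 was 0.042 on the log2 scale there and 2.56 in control replicate 4. Their summed signal was 5926 in DicerCN replicate 3, and the Chrng probe set, bright on every array, is included in all these sums. Col3a1, Tnmd and Scx, a fibrillar collagen and tendon genes named after their values were seen, differed by 2.15, 1.50 and 0.71. Of 7 smooth muscle markers only Acta2 passed, and the list summed to 2230, against 777 to 809 in the other controls and 884 to 1518 in DicerCN lenses.

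The 6 erythroid genes were lower in control replicate 4, with a median difference of −0.72 on the log2 scale, and summed to 6222 against 8596 to 11730 in the other controls and 8292 to 13284 in DicerCN lenses. Macrophage markers summed to 1225, above the 744 to 1075 of the other controls and inside the 1132 to 1937 of DicerCN lenses. Periocular mesenchyme markers summed to 860, against 719 to 796 in the other controls and 752 to 1055 in DicerCN lenses. None of the markers of lens, neural retina, pigment epithelium, periocular mesenchyme, macrophages, erythroid cells, endothelium, surface ectoderm or neurons was 1 log2 unit higher. Only 1.03% of all genes passed that mark, so this absence is near the background. The largest difference in these lists was 0.998, in a neuron marker. The part of any of these tissues in the muscle signal was not tested.

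**Figure D3:**
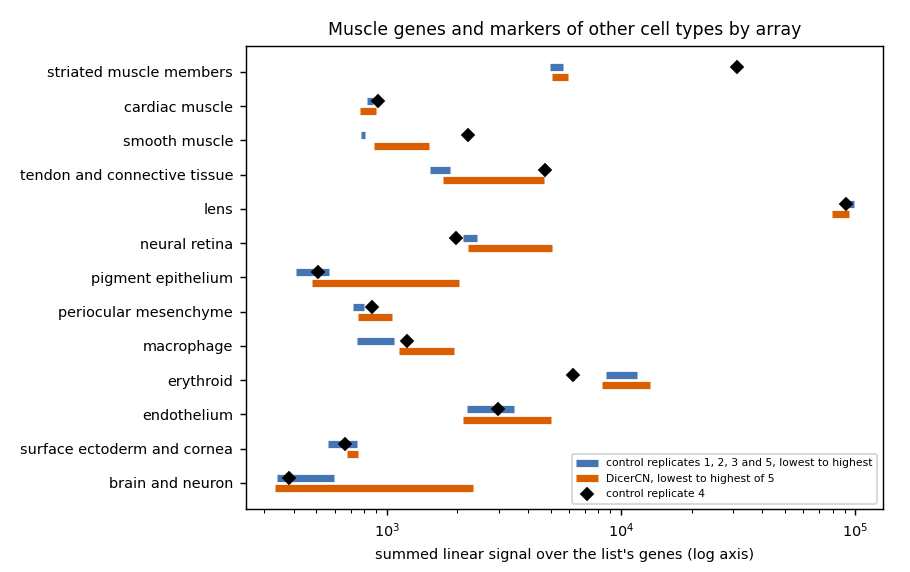
Summed linear signal of the muscle genes and of each marker list (log axis); the black diamond is control replicate 4, and bars span the lowest to highest of the other 4 controls (blue) and of the 5 DicerCN arrays (orange). The diamond is far from the bars for the muscle genes, at 31354 against at most 5926, and above both bars for smooth muscle, while for tendon and connective tissue it lies close to the end of the DicerCN bar. The tendon and connective tissue sum includes Tcf4, which was bright on every array. The smooth muscle sum includes Acta2, its only marker that was highest in control replicate 4.

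Whether muscle genes differed between DicerCN and control lenses was tested with limma over all genes. With all 10 arrays 0 members rose and 1 fell, beside 2.56% and 3.97% of all genes, so neither count is above the background. At an unadjusted p under 0.05, 0 members were higher and 1 lower, beside 8.36% and 10.2% of all genes. The median difference, DicerCN minus control, was −0.56 over the members and −0.0014 over all genes. A difference below 0 was found in 34 of 36 members and in 10036 of 19938 genes. Control replicate 4 enters each of these control means, so the 34 are not separate observations. Without control replicate 4 the members' median was 0.0012, and 18 of 36 members were below 0, beside 10216 of all genes. Among the 4 remaining controls and 5 DicerCN arrays 1 member rose and 1 fell, beside 2.31% and 3.92% of all genes, and at an unadjusted p under 0.05 1 was higher and 2 were lower, beside 8.08% and 10.6%.

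For Myh3, the difference between groups was −1.32 with a 95% confidence interval of −3.26 to 0.62 (limma adjusted p = 0.496), and −0.21 with an interval of −0.60 to 0.18 without control replicate 4 (adjusted p = 0.620). Myod1 went from −0.68 (−1.80 to 0.44) to −0.043 (−0.25 to 0.16). Actc1 went from −0.72 (−2.49 to 1.05) to 0.28 (−0.15 to 0.72). In these 3 genes the interval narrowed on leaving that array out and still included 0. The median range of a member over the other 9 arrays was 0.49, and that of all genes was 0.52.

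Tpm2 was the member that fell in both fits. It measured 8.10, 8.04, 8.09, 9.56 and 8.18 in control and 7.28, 7.32, 7.05, 7.22 and 7.07 in DicerCN lenses. All DicerCN arrays lay below all control arrays. The difference was −1.20 (SE 0.24, limma adjusted p = 0.0111), or 2.30-fold lower, and −0.91 (SE 0.08, adjusted p = 0.000168), or 1.88-fold lower, without control replicate 4. The exact permutation test of Tpm2 gave p = 0.00794 with all arrays and without that control, the smallest p either design allows. With all arrays that p follows from the separation of the groups. The exact test is not adjusted and was run only for Tpm2 and Des, which limma had called, so it adds no separate support. Beta tropomyosin binds actin filaments in many cells besides muscle, and Tpm2 stayed called under all 16 alternatives, with differences of −1.29 to −0.88. Myom1 was the other member with all DicerCN arrays (6.25 to 6.43) below all controls (6.46 to 8.77). Its difference did not pass the test, at −0.70 (adjusted p = 0.320), or −0.27 (adjusted p = 0.112) without control replicate 4. Such a separation held for 4.42% of all genes with all arrays and for 6.11% without control replicate 4, so 2 of 36 members is near the background.

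Des was the member that rose, and only when control replicate 4 was left out. The other 4 controls measured 5.868, 5.66, 5.53 and 5.65 and DicerCN arrays 6.26, 5.875, 6.01, 6.10 and 5.98, so the lowest DicerCN array was just above the highest of those controls, a separation in that direction found in 3.75% of all genes. The difference was 0.37 (SE 0.10, limma adjusted p = 0.0492, exact permutation p = 0.0159). With all 10 arrays, among them control replicate 4 at 8.67, the Des difference was −0.23 (adjusted p = 0.872). Leaving out DicerCN replicate 5 as well gave 0.39, which did not pass (adjusted p = 0.0623).

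**Figure D4:**
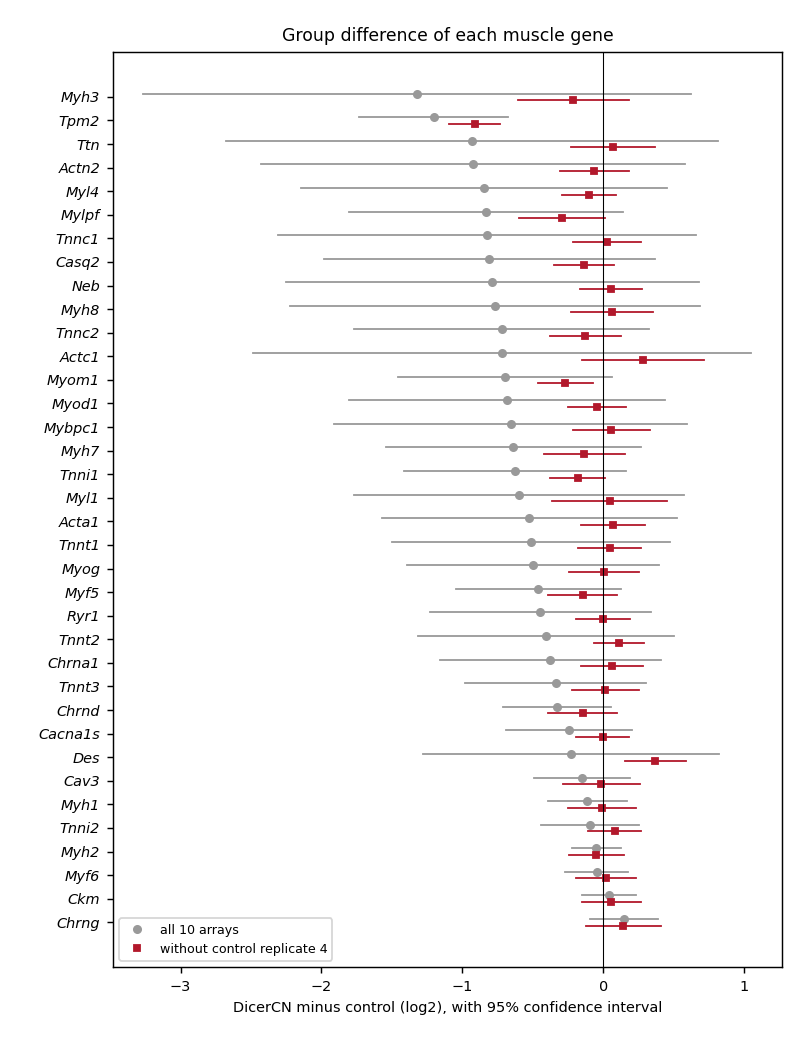
DicerCN minus control (log2) of each muscle gene with its 95% confidence interval from limma, with all 10 arrays (grey circles) and without control replicate 4 (red squares), ordered by the first value. Grey intervals are wide and mostly to the left, around a median of −0.56, red ones are narrow around 0.0012, and Tpm2 is the gene whose interval stays well left of 0 both times.

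Of the 101 genes of the pathway lists, 0 rose and 3 fell with all arrays, by limma, beside 2.56% and 3.97% of all genes. At an unadjusted p under 0.05, 2 were higher and 7 lower, beside 8.36% and 10.2%. Jph1, junctophilin 1, which ties the surface membrane to the sarcoplasmic reticulum, measured 8.48, 8.18, 8.41, 8.31 and 8.48 in control and 7.45, 7.42, 7.74, 7.23 and 7.32 in DicerCN lenses. The Jph1 difference was −0.94 (SE 0.10, limma adjusted p = 0.000217). Pgam2, the muscle form of phosphoglycerate mutase, measured 9.96, 10.28, 9.97, 9.90 and 10.005 in control and 8.86, 9.10, 9.01, 8.15 and 8.42 in DicerCN lenses, a difference of −1.32 (SE 0.17, adjusted p = 0.000696). In both genes all DicerCN arrays were below all controls and control replicate 4 was not high. Jph1 and Pgam2 stayed called under all 16 alternatives. Sgca, alpha sarcoglycan, differed by −0.41 (adjusted p = 0.0369) and did not pass without control replicate 4 (adjusted p = 0.0768). Its call was also lost with the replicate block and on leaving out any of controls 1, 3 and 5 or of DicerCN arrays 1, 3, 4 and 5, so it passed in 5 of 15 alternatives (adjusted p up to 0.133).

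Without control replicate 4, 2 of the 101 genes of these lists rose and 2 fell, the latter being Jph1 and Pgam2. Beside 2.31% and 3.92% of all genes in that fit, neither count is above the background. Tpm1, alpha tropomyosin, which is also made outside muscle, measured 9.24, 9.35, 9.22 and 8.95 in the other 4 controls and 10.06, 9.73, 9.89, 9.89 and 9.58 in DicerCN lenses. The Tpm1 difference was 0.64 (SE 0.11, limma adjusted p = 0.00629), and 0.51 (adjusted p = 0.0574) with control replicate 4, which was at 9.84. Chrnb1 differed by 0.54 (adjusted p = 0.0233) without that array and by 0.26 (adjusted p = 0.658) with it. Tpm1 passed in 6 of 16 alternatives and Chrnb1 in 2 of 15. The tropomyosin genes thus gave differences of opposite sign, Tpm2 below and Tpm1 above the controls.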

How the data were processed

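Affymetrix whole-transcript arrays were read with GCOS, per the submitters' processing notes; the deposited log2 values were used as given. The log base is read from their range (1.91 to 15.2), and the summarisation, normalization and array build are not given in the sources used here. Of 35557 probe sets, 21789 had 1 symbol and were kept, 1621 had several and 12147 none. Gene IDs of 21698 matched RefSeq (GRCm38.p6), with 0 symbols changed. Per gene, the probe set with the highest mean was used, which left 19938 genes.

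Groups were compared with limma 3.58.1 (R 4.3.3), with Benjamini-Hochberg adjustment over all genes at 0.05. The fit was tested on simulated data whose spread came from the controls without replicate 4. That check therefore does not cover an outlying array. Exact 2-sided permutation tests were run for Tpm2 and Des only, the members that limma called with or without control replicate 4. Alternatives were the replicate block, quantile normalization, a signal filter, mean of probe sets, array weights and leaving out arrays.

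The members, the pathway and marker lists and the separate reading of control replicate 4 were chosen with earlier results of these data known. The text names all members, the 3 largest differences per pathway list and those passing the test, and the 20 largest over all genes; exceptions are marked. Of the 2 brightest markers per list, those a result turns on are given. Of 106 pathway genes, 101 were measured.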

Additional observations from a re-analysis of the deposited data

Results flagged for a closer look

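In a group of 5 arrays, the gap between the highest or lowest array and its nearest neighbour was divided by the whole range of the group, and values above Dixon's limit of 0.71 mark an array far from the rest. Chance passes this limit in about 1 group in 20. The genes looked at were partly named for their difference in control replicate 4, so the counts below describe that array and are no test against this rate. Of 202 groups looked at, 59 passed, and in 53 of them the far array was control replicate 4 as the highest. Among the muscle genes these were Myod1 (0.897), Myog (0.834), Myh3 (0.916), Myh8 (0.873), Myl4 (0.933), Actc1 (0.828), Tnnt2 (0.949), Myh7 (0.821), Tnni1 (0.863), Tnnt1 (0.874), Tnnc1 (0.896), Mybpc1 (0.865), Mylpf (0.873), Myl1 (0.777), Tnni2 (0.81), Tnnt3 (0.751), Tnnc2 (0.883), Acta1 (0.893), Tpm2 (0.907), Neb (0.942), Ttn (0.937), Actn2 (0.899), Myom1 (0.833), Des (0.891), Chrna1 (0.879), Cacna1s (0.843), Ryr1 (0.922), Casq2 (0.914) and Cav3 (0.737). The 7 members in which control replicate 4 did not pass were Myf5, Myf6, Myh1, Myh2, Chrnd, Chrng and Ckm, and no DicerCN array passed for any member.

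Among the other genes named, control replicate 4 was far above the other controls for Mstn (0.889), Mymk (0.832), Mef2c (0.774), Klhl41 (0.89), Smyd1 (0.882), Smpx (0.91), Atp2a1 (0.867), Srl (0.903), Sgcd (0.794), Musk (0.872), Chrnb1 (0.784), Apobec2 (0.896), Fabp3 (0.77), Acta2 (0.862), Col1a1 (0.764), Nrk (0.875), Capn6 (0.902), Flnc (0.91), Dcn (0.861), Epha3 (0.744), Pax7 (0.727), Col3a1 (0.769), Scx (0.817) and Tnmd (0.828). These include connective tissue genes beside muscle genes. The remaining 6 far arrays were of other kinds: Smpx was low in DicerCN replicate 1 (0.865) and Tnmd low in DicerCN replicate 5 (0.721), while Sgcd (0.772) and Col1a1 (0.84) were high in DicerCN replicate 3, Hes5 in DicerCN replicate 5 (0.84) and Pgam2 in control replicate 2 (0.728). Many of these genes are related to each other, so these values are not independent.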

How the results depend on the processing

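Of 548 differences of single members recomputed under the alternatives, 516 kept their direction and side of the threshold and 32 changed sign. Nearly all sign changes came from leaving out control replicate 4. With 1 array left out at a time, the difference was positive only without control replicate 4 for Myog (−0.69 to 0.0056), Myf6 (−0.13 to 0.021), Myh8 (−1.06 to 0.062), Actc1 (−1.09 to 0.28), Tnnt2 (−0.55 to 0.11), Tnnt1 (−0.72 to 0.046), Tnnc1 (−1.09 to 0.028), Mybpc1 (−0.89 to 0.057), Myl1 (−0.89 to 0.045), Tnni2 (−0.17 to 0.081), Tnnt3 (−0.49 to 0.016), Acta1 (−0.70 to 0.072), Neb (−1.03 to 0.058), Ttn (−1.22 to 0.068), Des (−0.42 to 0.37) and Chrna1 (−0.52 to 0.063). Without both control replicate 4 and DicerCN replicate 5 they were positive for Myf6 (0.044), Myh8 (0.062), Actc1 (0.14), Tnnt2 (0.070), Tnnt1 (0.022), Mybpc1 (0.033), Myh1 (0.049), Tnni2 (0.076), Acta1 (0.071), Neb (0.085), Ttn (0.11), Des (0.39), Chrna1 (0.091) and Cacna1s (0.039), and with 1 array left out Myh1 and Cacna1s stayed negative (−0.16 to −0.0092 and −0.33 to −0.0047). Myh2 ran from −0.081 to 0.0027 (without control replicate 1) and Ckm from −0.023 (without control replicate 3) to 0.078. Of these, Des without control replicate 4 alone passed the test.

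The members' median group difference ran from −0.73 (without control replicate 3) to 0.0012 (without control replicate 4) when 1 array was left out, and was −0.015 without both arrays. The count of members that rose was 0, or 1 without control replicate 4, and 1 member fell throughout. Over all genes 1303 differed, 784 to 1295 when 1 array was left out, with 784 without control replicate 1 and 865 without control replicate 2; the cause was not tested. Keeping genes above the median signal left 8 members, which lowered the counts at 1 log2 unit and of highest array to 7 each, with a median of 2.37 in control replicate 4. That filter includes control replicate 4 in its mean, and 3 of the 8 (Myh7, Tnnt3 and Actn2) were below the median on the other 9 arrays, so these values support nothing.

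The groups share replicate numbers, and same-numbered arrays deviated together little (correlations −0.088 to 0.19, the highest for replicate 4). Low correlations cannot tell whether the numbers pair the arrays, and the main fit used no pairing. With the replicate number as a block, 1100 genes differed, 0 members rose, 1 fell and their median stayed at −0.56. The number of arrays limits the precision, and signal over background could not be judged.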
